A study of Mus musculus with 12 samples.

Results

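The genes described here are 42 members of the mTOR complexes and of the nutrient-sensing machinery around them, taken by gene name from the 57490 genes of a table of raw read counts of mouse kidney. They were grouped by role as 8 subunits of the complexes, 4 genes of the TSC complex and Rheb, 18 genes of the Rag GTPases, Ragulator, folliculin, GATOR1 and the sestrins, 7 upstream kinases and regulators, and 5 effectors. The RNA was from the kidneys of 12 males, with 4 mice per group and 3 groups. The Ctrl group held db/m mice, whose genotype label reads wild-type while the animal protocol calls them heterozygote db/+. The Model group held db/db mice of the strain BKS.Cg-Dock7m +/+ Leprdb/JNju, which lack a working leptin receptor and so grow obese and diabetic. The db/db mice that entered the study had been selected for high random blood glucose. The YHY group held db/db mice given Yiqi Huoxue Yangyin Decoction (YHY), a water extract of several medicinal herbs, at 6.24 g/mL by oral gavage at 50 µL for each 10 g the mouse weighed, once daily for 4 weeks. Ctrl and Model mice received the same volume of purified water. Mice were obtained at 8 weeks of age and were 13 weeks old according to the labels. The sample labels call the tissue kidney, and the design of the series calls it renal cortex. Comparing Model with Ctrl asks what differs in the diabetic kidney, and comparing YHY with Model asks what differs after treatment.

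The mTOR kinase works in protein complexes that read growth factors, energy and nutrients. Together with Raptor it forms mTORC1, which is recruited to the lysosome by Rag GTPases when amino acids are present, is switched on there by Rheb, and promotes protein synthesis while restraining autophagy. Together with Rictor it forms mTORC2, which phosphorylates Akt. In the kidney, the pathway is known for its role in podocytes and tubule cells and for high mTORC1 activity in diabetic glomeruli. Activity of these proteins depends largely on phosphorylation and location, which RNA counts do not measure.

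Library totals ran from 29632718 to 33276634 counts in Ctrl, from 24415658 to 29784346 in Model and from 25149764 to 29698342 in YHY. Transcripts of the mitochondrial genome made up 19.5% ± 2.12 of the counts in Ctrl, 52.2% ± 7.68 in Model and 56.8% ± 5.21 in YHY (mean ± SD, n = 4). Model 1 had the lowest such share among db/db mice, 41.2%. The widest 95% Wilson interval of a single mouse's share spanned 0.0396 percentage points. Such intervals cover counting error only, not the spread between mice. Even for counting error they can be too narrow, because PCR copies of a molecule are counted as if they were separate. The mitochondrial share thus moves with the groups, and its part in the results below was not tested. Values are given as CPM, counts scaled to a common library size, after TMM scaling, a method that adjusts each library for differences in composition. Genes were tested with edgeR's quasi-likelihood test in a single fit of the 12 mice, two-sided, and called when the adjusted P (Benjamini-Hochberg, all 17431 genes that passed the filter) was under 0.05. All 42 members passed the filter on low counts. The 3 comparisons share mice, so their values are set side by side only. In bulk tissue, fewer cells of a type and less RNA per cell cannot be told apart.

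In Model against Ctrl, 15 of the 42 members were called, 5 higher and 10 lower. That is 35.7% of the members against 38.0% of all genes tested (19.6% higher and 18.5% lower), so the share called lay near that of all genes and is not a result about the members. In YHY against Model, 13 members were called, 4 higher and 9 lower. That is 31.0% of the members against 13.3% of all genes, 5.63% higher and 7.62% lower, and the difference between these shares was not tested. Without Model 3 the count fell to 7 members and that of all genes to 1146, from 2311. In YHY against Ctrl, 24 members were called, 10 higher and 14 lower, 57.1% against 50.3% of all genes, 26.1% higher and 24.2% lower. The members' median log2 fold change was -0.19 in Model against Ctrl, -0.02 in YHY against Model and -0.19 in YHY against Ctrl, beside 0.04, 0.02 and 0.10 for all genes. By name, Rptor and Akt1s1 were higher in Model against Ctrl and lower in YHY against Model, and Rragd, Lamtor1, Akt2 and Prkaa2 were lower in both. Another 4 members, Rragc, Fnip1, Stk11 and Rps6kb1, were called in YHY against Ctrl alone, and 16 members were called in no comparison.

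How many members were higher or lower depended on the scaling. In Model against Ctrl, scaling by library size alone moved the log2 fold change of all genes by -0.43 at the median, upper-quartile scaling by 0.10, and scaling by the library size of the nuclear genes, an alternative chosen after seeing the data, by 0.33. Among all genes called there, 51.5% were higher with TMM, 21.4% with library size alone and 77.6% with the nuclear library size, and the members split as 1 higher and 20 lower, or 14 higher and 5 lower, under the latter pair. In YHY against Model, the nuclear library size moved all genes by 0.14 and the share higher from 42.5% to 64.6%, with 7 members higher and 5 lower, and library size alone gave 4 higher and 2 lower. In YHY against Ctrl, the 3 scalings moved all genes by -0.43, 0.12 and 0.47, and the share higher was 51.9% with TMM, 28.4% with library size alone and 77.7% with the nuclear library size. Members then split as 6 higher and 23 lower, or 15 higher and 9 lower. Under these scalings, DESeq2 size factors and TMM on nuclear genes, no called member changed sign in the first comparison or in that of YHY with Model. Some members not called in Model against Ctrl passed there with a single scaling only, namely Deptor, Lamtor3, Fnip2 and Eif4ebp2 with library size alone and Tsc2, Fnip1, Depdc5 and Stk11 with the nuclear library size. In YHY against Ctrl, Akt1s1 changed sign with the nuclear library size (log2 fold change 0.16).

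**Figure D1:**
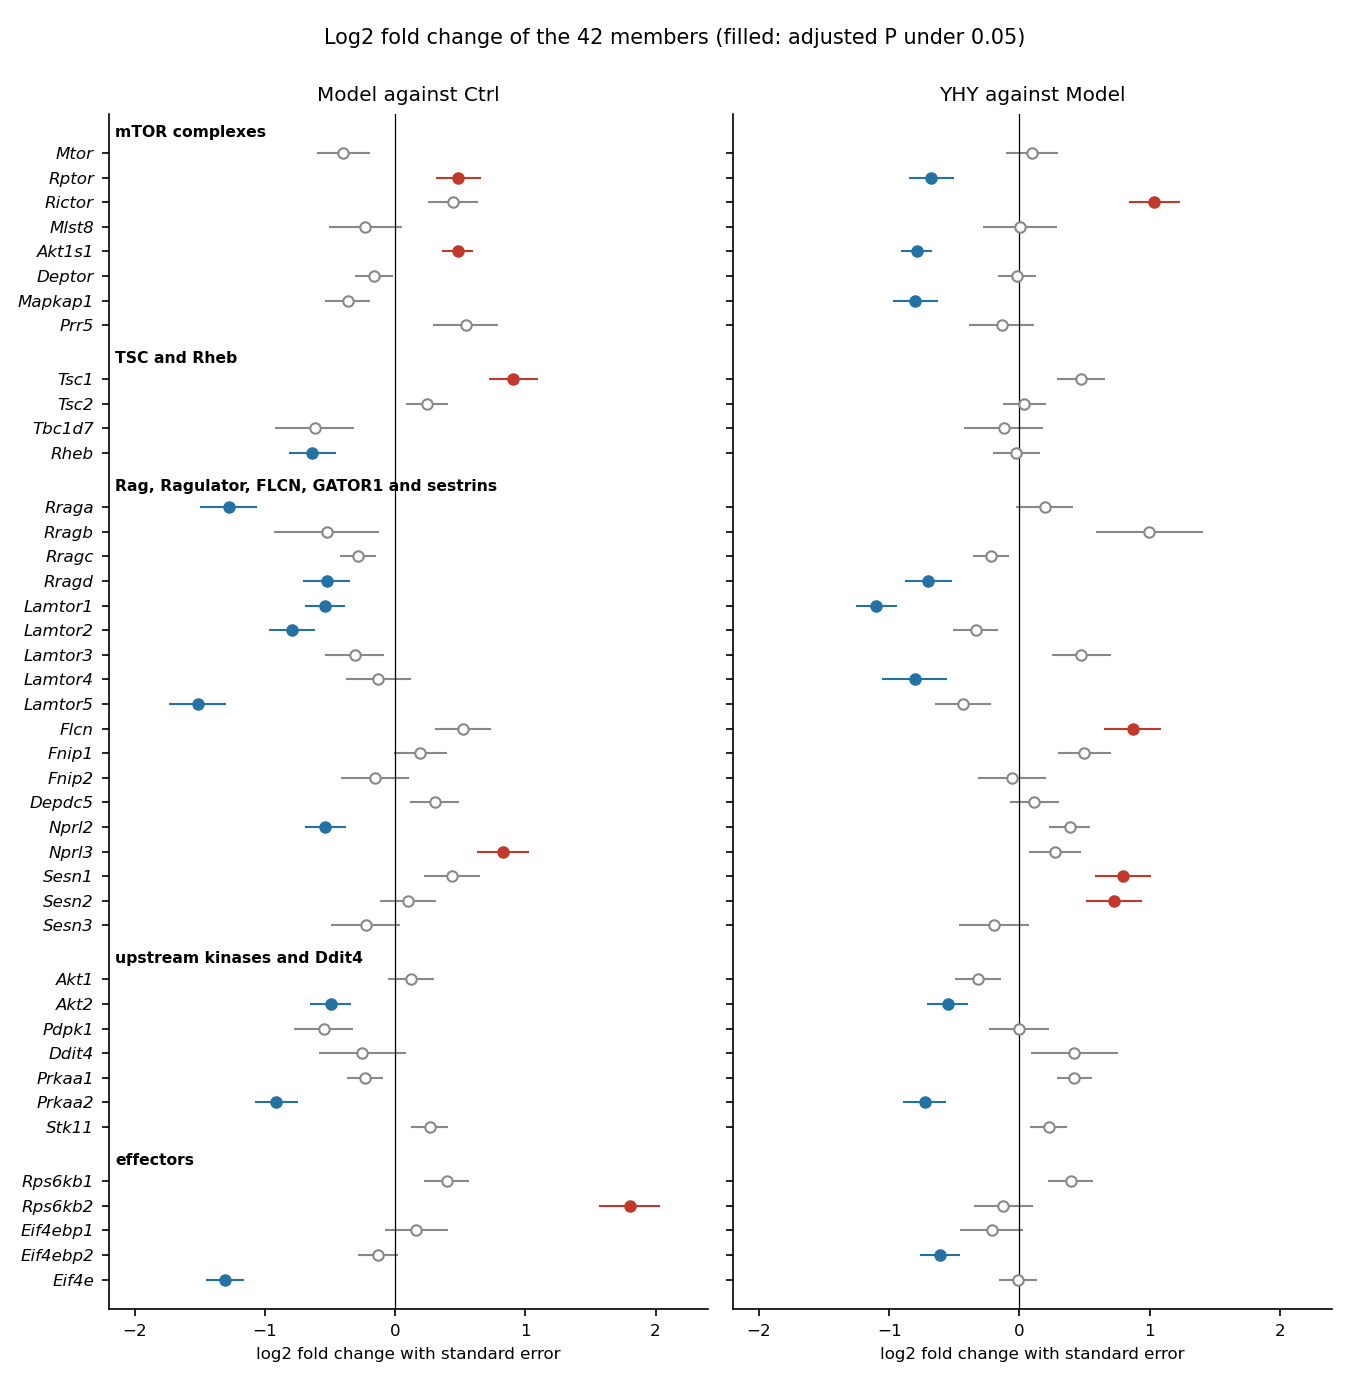
Log2 fold change with its standard error (x axis) of the 42 members, by role, in Model against Ctrl (left) and YHY against Model (right); filled red and blue points were called higher or lower at an adjusted P under 0.05, and open points were not called. The most extreme values are those of Rps6kb2 (1.80) and Lamtor5 (-1.51) on the left and of Lamtor1 (-1.10) and Rictor (1.04) on the right, and no called point changes sign under another scaling.

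Of the subunits of the complexes, 2 of 8 were higher in Model against Ctrl, and 1 was higher and 3 were lower in YHY against Model. Of all genes tested, 19.6% were higher in the first comparison, and 5.63% were higher and 7.62% lower in the second. The counts were not tested against those shares. Mtor encodes the kinase itself (ENSMUSG00000028991, chr4:148533068-148642140, + strand; gene positions are those of the deposited table, on GRCm39). Its CPM in mice 1 to 4 was 205, 208, 167 and 113 in Ctrl, 108, 120, 150 and 148 in Model, and 153, 174, 122 and 115 in YHY. Ctrl 4 was the lowest of its group and lay among the Model mice and below the YHY mice, and each pair of groups overlapped. Group means were 173 ± 44.1, 132 ± 20.7 and 141 ± 27.6 (SD, n = 4). The log2 fold change was -0.40 ± 0.20 (SE; adjusted P = 0.136) in Model against Ctrl and 0.10 ± 0.20 (adjusted P = 0.809) in YHY against Model, so Mtor passed the test in neither. Two-sided exact permutation tests on CPM gave P = 0.143 and P = 0.571, where the smallest P that the 70 splits of 4 against 4 mice allow is 0.0286. Mtor did pass in Model against Ctrl without Ctrl 4 (log2 fold change -0.61, adjusted P = 0.0209), with library size alone (-0.82, adjusted P = 0.00491) and with offsets for gene length and GC content (-0.55, adjusted P = 0.0416). The same 3 alternatives made it pass in YHY against Ctrl (-0.52 and adjusted P = 0.0322 without Ctrl 4). Over 5278 bases Mtor lies opposite Angptl7, taking whole gene spans with introns, as in every overlap given below. The use of strand in read counting is not stated, so reads from any shared exons could not be told apart. Whether exons overlap was not examined. The mean count was 4419.9 for Mtor and 138 for Angptl7.

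Rptor encodes Raptor, the subunit that brings substrates to mTORC1 (ENSMUSG00000025583, chr11:119493731-119790402, + strand). CPM was 27.9, 28.2, 21.8 and 27.7 in Ctrl, 27.6, 36.1, 44.6 and 39.9 in Model, and 18.4, 20.7, 25.6 and 27.9 in YHY. Model 2, 3 and 4 lay above every Ctrl and YHY mouse, whereas Model 1 lay within both of those groups. Rptor rose 1.40-fold in Model against Ctrl (log2 fold change 0.49 ± 0.17, adjusted P = 0.0361), with 4 of 4 Model mice above the Ctrl mean. It was lower in YHY than in Model (-0.68 ± 0.17, adjusted P = 0.0193), with 4 of 4 YHY mice below the Model mean, and YHY against Ctrl gave -0.19 ± 0.17 (adjusted P = 0.384), which passed with library size alone and with length and GC offsets. Exact permutation tests gave P = 0.114 for Model against Ctrl and P = 0.0571 for YHY against Model. The higher level in Model lost its call when any of 7 mice was left out (Ctrl 1, 2, 3 or 4, Model 2, 3 or 4; log2 fold change 0.35 to 0.52, adjusted P from 0.0510 to 0.158), with library size alone (0.04), without the filter, and with length and GC offsets (0.22). The lower level in YHY lost its call without Model 3 (-0.58, adjusted P = 0.0754) or YHY 1 (-0.58, adjusted P = 0.0509), with either library-size scaling, and when the fit held just the 8 mice of the comparison.

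Rictor, the subunit that defines mTORC2 (ENSMUSG00000050310, chr15:6737860-6829882, + strand), had a CPM of 12.3, 13.4, 12.6 and 10.4 in Ctrl, 16.8, 18.5, 15.2 and 15.7 in Model, and 36.0, 38.6, 19.7 and 41.7 in YHY. The groups did not overlap, and YHY 3 lay closer to the Model mice than to the other YHY mice. Rictor rose 2.05-fold in YHY against Model (log2 fold change 1.04 ± 0.20, adjusted P = 0.00392), and no alternative or left-out mouse ended the call. Model against Ctrl gave 0.44 ± 0.19 (adjusted P = 0.0827), which did not pass. It passed there without YHY 3 (adjusted P = 0.0189), with upper-quartile scaling, with the nuclear library size and when the fit held just the 8 mice of the comparison. The exact permutation test gave P = 0.0286 in each of these comparisons, the smallest it allows. Against Ctrl, YHY mice were 2.79-fold higher (1.48 ± 0.20, adjusted P = 1.78e-05).

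Akt1s1 encodes PRAS40, an inhibitor bound to Raptor (ENSMUSG00000011096, chr7:44498415-44504845, + strand). It stood at a CPM of 42.2, 48.5, 41.8 and 41.4 in Ctrl, 59.0, 64.8, 57.0 and 61.8 in Model, and 34.5, 36.4, 32.8 and 36.9 in YHY. All 4 Model mice lay above all 4 Ctrl mice, and all 4 YHY mice lay below both groups. Akt1s1 rose 1.39-fold in Model (log2 fold change 0.48 ± 0.12, adjusted P = 0.00458) and was lower in YHY than in Model (-0.79 ± 0.12, adjusted P = 0.000979). The first call ended with library size alone (0.05) and with length and GC offsets (0.23), and the second held under every alternative and left-out mouse. YHY against Ctrl gave -0.31 ± 0.12 (adjusted P = 0.0398), a call that ended without Ctrl 2, Model 3, YHY 1 or YHY 3 (adjusted P from 0.0511 to 0.114), with the replicate number as a block (adjusted P = 0.0527) and in 4 other settings. Akt1s1 lies opposite Tbc1d17 over 89 bases (mean counts 1344 and 1064).

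Mapkap1 encodes mSIN1, a subunit of mTORC2 (ENSMUSG00000038696, chr2:34296783-34514962, + strand). Its CPM was 49.6, 53.2, 52.2 and 55.7 in Ctrl, 40.6, 39.9, 40.8 and 42.3 in Model, and 27.9, 15.3, 30.4 and 20.4 in YHY. Each group lay below the one before it without overlap. Mapkap1 was lower in YHY than in Model (log2 fold change -0.80 ± 0.18, adjusted P = 0.00895), a call that ended with library size alone (-0.75, adjusted P = 0.0821) and with the nuclear library size (-0.64, adjusted P = 0.0515). Model against Ctrl did not pass (-0.36 ± 0.17, adjusted P = 0.108) except without YHY 2 (adjusted P = 0.0373), with library size alone and when the fit held just the 8 mice of the comparison. So within mTORC2, Rictor and Mapkap1 differed in opposite directions between YHY and Model. The other subunits, Mlst8, which binds the kinase domain in both complexes, the inhibitor Deptor, and Prr5 of mTORC2, were called in none of the 3 comparisons. Group means of CPM, in the order Ctrl, Model, YHY, were 4.46, 3.82 and 3.82 for Mlst8, 35.7, 32.0 and 31.6 for Deptor, and 20.7, 30.1 and 27.4 for Prr5. With the replicate number as a block, Prr5 passed in Model against Ctrl (0.57, adjusted P = 0.0326), as it did in 3 other settings.

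**Figure D2:**
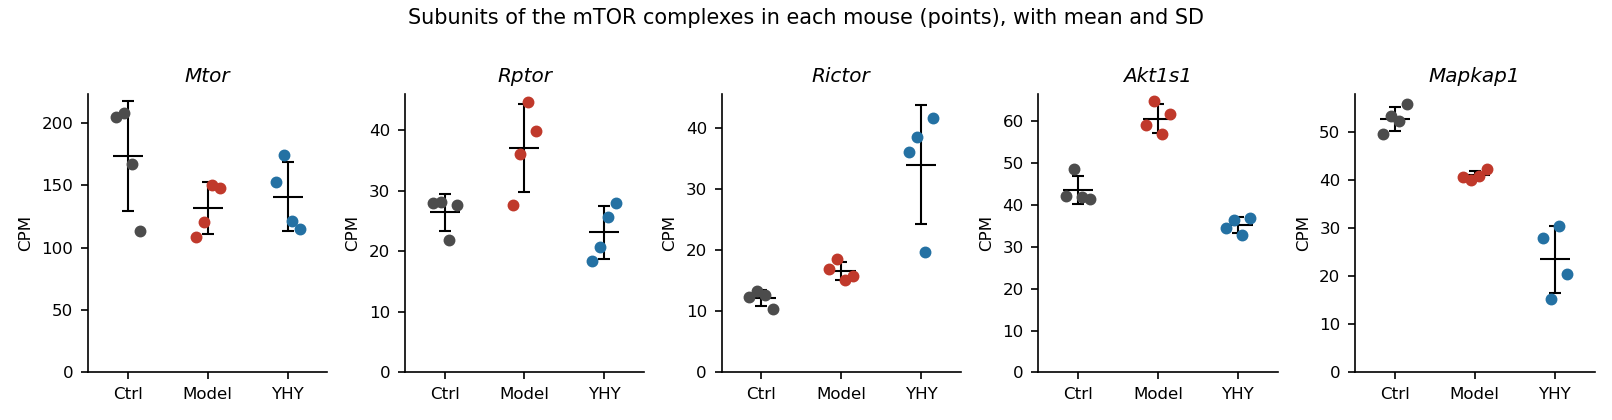
CPM (y axis) of 5 subunits of the mTOR complexes in each mouse (points) of the Ctrl, Model and YHY groups, with the mean (long bar) and SD (whiskers, n = 4). Mtor overlaps between groups (means 173, 132 and 141), Rictor in YHY (19.7 to 41.7) lies above Model (15.2 to 18.5), and Akt1s1 in YHY (32.8 to 36.9) lies below Model (57.0 to 64.8).

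The TSC complex turns Rheb off, and of these 4 genes Tsc1 was higher and Rheb lower in Model against Ctrl. Tsc1 encodes hamartin (ENSMUSG00000026812, chr2:28531240-28581179, + strand). CPM values were 17.8, 17.8, 16.4 and 16.0 in Ctrl, 22.9, 38.2, 29.8 and 36.9 in Model, and 49.4, 55.5, 30.9 and 41.7 in YHY. Every db/db mouse lay above every Ctrl mouse, while Model and YHY overlapped. Tsc1 rose 1.88-fold in Model (log2 fold change 0.91 ± 0.19, adjusted P = 0.00145), and library size alone ended this call (0.46, adjusted P = 0.0587). YHY against Model gave 0.47 ± 0.19 (adjusted P = 0.107), which passed only without YHY 3 (0.61, adjusted P = 0.0354). Against Ctrl, YHY mice were 2.61-fold higher (1.38 ± 0.19, adjusted P = 2.49e-05).

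Rheb, the GTPase that switches mTORC1 on (ENSMUSG00000028945, chr5:25007821-25047622, - strand), had a CPM of 101, 99.3, 98.5 and 96.9 in Ctrl, 80.8, 53.3, 61.4 and 59.3 in Model, and 75.1, 49.1, 78.5 and 48.0 in YHY. Ctrl mice lay close together and above all others. Rheb was lower in Model (log2 fold change -0.64 ± 0.18, adjusted P = 0.0115), in 4 of 4 mice, and the nuclear library size ended the call (-0.32, adjusted P = 0.218). It did not differ past the threshold between YHY and Model (-0.02 ± 0.18, adjusted P = 0.954), and YHY against Ctrl gave -0.66 ± 0.18 (adjusted P = 0.00637), which the nuclear library size ended (-0.17). Tsc2, which carries the GTPase-activating activity of the complex, and its further subunit Tbc1d7 were not called in any of the 3 comparisons. Mean CPM was 32.2, 38.2 and 39.2 for Tsc2 and 9.93, 6.45 and 5.92 for Tbc1d7. In Model against Ctrl, Tbc1d7 passed only without Model 1 (log2 fold change -0.90, adjusted P = 0.0397) and with library size alone. It passed in YHY against Ctrl without Model 1, 3 or 4 or YHY 1 (adjusted P from 0.0224 to 0.0451) and in 5 settings. Tsc2 lies opposite Pkd1 over 693 bases (mean counts 1039.7 and 660.2), where reads from any shared exons could not be told apart.

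Rag GTPases hold mTORC1 at the lysosome as pairs of a RagA or RagB with a RagC or RagD. Rraga (RagA; ENSMUSG00000070934, chr4:86493905-86495522, + strand) had a CPM of 26.1, 17.5, 22.7 and 26.5 in Ctrl, 10.6, 9.81, 8.997 and 8.89 in Model, and 12.7, 14.04, 11.0 and 6.08 in YHY. No db/db mouse reached the lowest Ctrl mouse. Rraga was lower in Model against Ctrl (log2 fold change -1.28 ± 0.22, adjusted P = 0.000347), and no alternative ended this call. YHY against Model gave 0.19 ± 0.22 (adjusted P = 0.608). Rragd (RagD; ENSMUSG00000028278, chr4:32983037-33022180, + strand) stood at 37.9, 39.3, 36.6 and 52.0 in Ctrl, 38.4, 26.0, 30.2 and 20.6 in Model, and 17.3, 18.6, 15.9 and 19.1 in YHY. All YHY mice lay below all Model mice, whereas Model 1 lay among the Ctrl mice. Rragd was lower in Model against Ctrl (-0.53 ± 0.18, adjusted P = 0.0293) and in YHY against Model (-0.70 ± 0.18, adjusted P = 0.0195), each time in 4 of 4 mice. The first call ended without Ctrl 4 or Model 2, 3 or 4 (adjusted P from 0.0534 to 0.0995), with upper-quartile scaling, the nuclear library size (-0.22), and length and GC offsets. The second ended without Model 1 or Model 3 (adjusted P from 0.0579 to 0.0584), with either library-size scaling, and with the 8 or 9 mice of the smaller fits. Rragc was called only in YHY against Ctrl (-0.50 ± 0.14, adjusted P = 0.0067; mean CPM 48.3, 39.7 and 34.1), a call the nuclear library size ended (-0.04), although it passed in Model against Ctrl without Model 1 (adjusted P = 0.0325), with library size alone and with the 9 mice. Rragb, with a mean CPM of 1.25, 0.869 and 1.75, was called in none.

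Ragulator is the complex of Lamtor1 to Lamtor5 that anchors the Rags on the lysosomal membrane, and 3 of its 5 genes were lower in Model against Ctrl. Of all genes tested, 18.5% were lower there, and the count was not tested against that share. Lamtor1, the membrane anchor (ENSMUSG00000030842, chr7:101555111-101575882, + strand), had a CPM of 67.1, 68.3, 67.2 and 82.8 in Ctrl, 53.1, 43.9, 51.0 and 48.6 in Model, and 25.3, 16.3, 26.3 and 23.9 in YHY. The 3 groups did not overlap. Lamtor1 was lower in Model against Ctrl (log2 fold change -0.54 ± 0.15, adjusted P = 0.0118) and lower again in YHY against Model (-1.10 ± 0.16, adjusted P = 0.000691), so that YHY against Ctrl gave -1.64 ± 0.16 (adjusted P = 1.19e-06). The nuclear library size ended the first call (-0.22, adjusted P = 0.34), and nothing tried ended the second. Lamtor1 lies opposite Lrrc51 over 13692 bases, and their mean counts were 1538.8 and 51.1.

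Lamtor2 (ENSMUSG00000028062, chr3:88457126-88460381, - strand) stood at a CPM of 55.4, 56.8, 58.5 and 42.6 in Ctrl, 40.4, 29.1, 30.3 and 23.1 in Model, and 21.5, 21.0, 27.8 and 27.0 in YHY. Lamtor5 (ENSMUSG00000087260, chr3:107186174-107191398, + strand) stood at 94.8, 123, 102 and 100 in Ctrl, 52.3, 32.1, 37.1 and 25.4 in Model, and 24.4, 19.5, 28.1 and 36.8 in YHY. For both genes every db/db mouse lay below every Ctrl mouse, and Model 1 was the highest db/db mouse. Both were lower in Model against Ctrl, Lamtor2 by a log2 fold change of -0.79 ± 0.17 (adjusted P = 0.00218) and Lamtor5 of -1.51 ± 0.22 (adjusted P = 9.31e-05), and neither call was lost in any alternative. YHY against Model did not pass for Lamtor2 (-0.34 ± 0.18, adjusted P = 0.22) or Lamtor5 (-0.43 ± 0.22, adjusted P = 0.2). Lamtor4 (ENSMUSG00000050552, chr5:138253744-138257660, + strand) showed another order, with 82.8, 120, 87.0 and 66.5 in Ctrl, 103, 77.5, 88.8 and 56.8 in Model, and 33.7, 41.2, 37.5 and 74.0 in YHY. YHY 4 lay among the Model and Ctrl mice, and the other YHY mice lay below them. Lamtor4 was lower in YHY than in Model (-0.80 ± 0.25, adjusted P = 0.0452), a call that ended when any 1 of 8 mice was left out (Ctrl 1 or 3, Model 1, 2 or 3, YHY 1, 2 or 3; log2 fold change -0.83 to -0.68, adjusted P from 0.0518 to 0.114), with library size alone, the replicate number as a block (-0.82, adjusted P = 0.0852), the 8 mice of the comparison alone, and length and GC offsets. Lamtor3, a scaffold with a mean CPM of 17.3, 13.96 and 19.4, was called in none of the 3 comparisons.

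Per kb of gene length, the Ragulator genes summed to 257 ± 31.5 CPM per kb (SD, n = 4) for Ctrl, 148 ± 33.4 for Model and 98.4 ± 25.2 for YHY. By mouse the sum was 242, 302, 255 and 230 in Ctrl, 190, 136, 155 and 111 in Model, and 82.4, 80.8, 95.4 and 135 in YHY. No Model mouse reached the lowest Ctrl mouse, and YHY 4 lay among the Model mice. Lamtor5, Lamtor4 and Lamtor2 were the most abundant members per kb in Ctrl, at 119, 68.4 and 43.8 CPM per kb, and Lamtor3 stood at 4.16. RNAs of a complex whose proteins assemble together thus stood at different levels per kb.

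**Figure D3:**
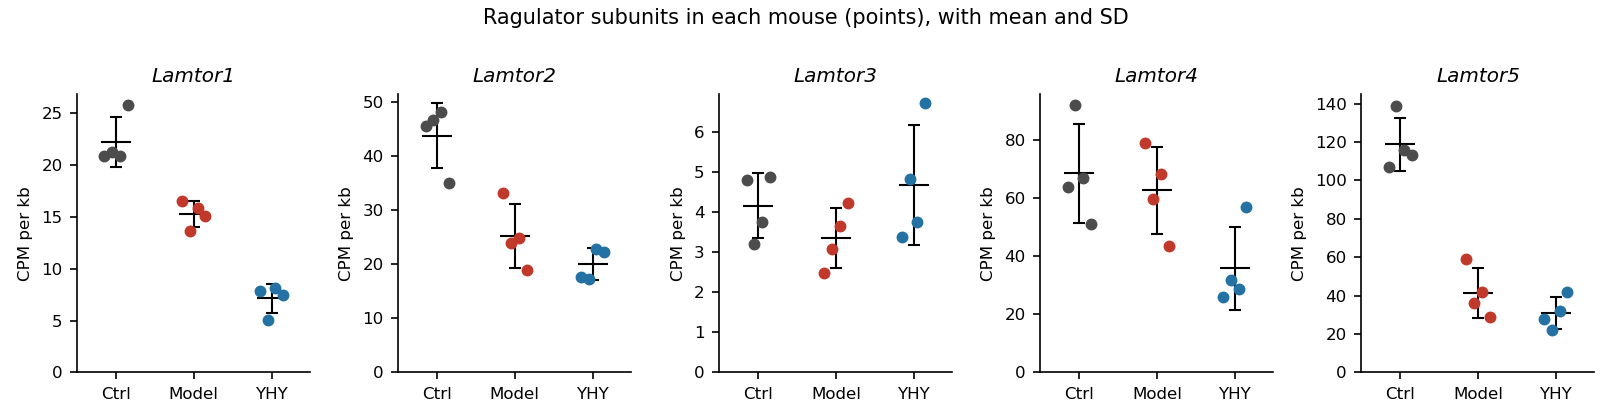
CPM per kb of gene length (y axis) of the 5 Ragulator genes in each mouse (points) of the 3 groups, with the mean (long bar) and SD (whiskers, n = 4). Lamtor5 falls from a mean of 119 in Ctrl to 41.6 in Model and stands at 30.8 in YHY, Lamtor1 goes from 22.2 to 15.3 and 7.13, and Lamtor3 overlaps between the groups.

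Promoters are shown for the 4 Ragulator genes called in either of the first comparisons and for Rheb and Mapkap1, a set chosen after the values were seen. Rraga and Rragd, also lower in Model, have none of the motifs below and are not printed. Promoter windows of 300 bases, 250 before and 50 after the start, came from RefSeq on GRCm38.p6, a build other than that of the gene positions above. They were found for 38 of the 42 members in 47 windows (not for Deptor, Lamtor3, Rps6kb2 and Eif4ebp1). The motifs searched, on both strands, were CACGTG (an E-box), its longer form TCACGTGA (part of the TFEB motif, and itself holding an E-box), the forkhead motif GTAAACA and the ATF4 motif TGATGNAA. In capitals are the matches. Lamtor1 spans chr7:101905587-101905886 (+ strand), Lamtor2 chr3:88552902-88553201 (- strand), Lamtor4 chr5:138255232-138255531 (+ strand), Lamtor5 chr3:107278608-107278907 (+ strand), Rheb chr5:24842312-24842611 (- strand) and Mapkap1 chr2:34406521-34406820 (+ strand).
Lamtor1: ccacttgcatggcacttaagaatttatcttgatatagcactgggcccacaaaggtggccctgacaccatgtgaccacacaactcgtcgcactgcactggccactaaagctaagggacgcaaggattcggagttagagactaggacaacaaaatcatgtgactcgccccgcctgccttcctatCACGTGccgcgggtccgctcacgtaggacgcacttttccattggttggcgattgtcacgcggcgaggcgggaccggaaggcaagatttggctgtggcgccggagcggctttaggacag
Lamtor2: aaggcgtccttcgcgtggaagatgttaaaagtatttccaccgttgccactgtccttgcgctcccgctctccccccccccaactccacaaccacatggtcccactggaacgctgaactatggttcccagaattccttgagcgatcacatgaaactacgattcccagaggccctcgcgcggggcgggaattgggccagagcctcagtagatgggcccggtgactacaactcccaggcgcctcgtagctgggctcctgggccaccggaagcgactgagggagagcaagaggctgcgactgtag
Lamtor4: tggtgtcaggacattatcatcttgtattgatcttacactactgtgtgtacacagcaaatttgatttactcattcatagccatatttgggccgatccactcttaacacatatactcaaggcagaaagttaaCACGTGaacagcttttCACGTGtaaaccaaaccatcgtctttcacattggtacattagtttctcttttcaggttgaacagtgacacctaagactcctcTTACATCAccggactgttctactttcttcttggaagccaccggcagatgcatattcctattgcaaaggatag
Lamtor5: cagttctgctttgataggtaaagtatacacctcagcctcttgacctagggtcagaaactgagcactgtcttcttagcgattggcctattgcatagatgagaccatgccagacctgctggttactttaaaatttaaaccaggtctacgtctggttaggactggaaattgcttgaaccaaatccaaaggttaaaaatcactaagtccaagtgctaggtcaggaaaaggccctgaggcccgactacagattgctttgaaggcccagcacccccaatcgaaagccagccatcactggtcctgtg
Rheb: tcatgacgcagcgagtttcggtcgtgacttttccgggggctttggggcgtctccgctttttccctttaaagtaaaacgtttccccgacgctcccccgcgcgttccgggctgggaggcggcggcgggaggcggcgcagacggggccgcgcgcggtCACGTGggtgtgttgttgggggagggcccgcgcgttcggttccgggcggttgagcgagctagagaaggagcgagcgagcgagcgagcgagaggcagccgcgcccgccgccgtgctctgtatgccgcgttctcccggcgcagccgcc
Mapkap1: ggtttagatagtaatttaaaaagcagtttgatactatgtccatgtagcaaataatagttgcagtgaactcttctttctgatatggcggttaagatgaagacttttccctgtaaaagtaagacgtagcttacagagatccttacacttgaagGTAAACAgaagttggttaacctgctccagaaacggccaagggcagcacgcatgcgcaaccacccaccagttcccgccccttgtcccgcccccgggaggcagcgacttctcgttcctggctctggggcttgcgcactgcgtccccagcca

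CACGTG begins 68 bases before the start of Lamtor1, 120 and 104 bases before that of Lamtor4, and 96 bases before that of Rheb, and the windows of Lamtor2 and Lamtor5 hold none of the 4 motifs. Lamtor4 also holds TGATGNAA on the reverse strand, 22 bases before the start. GTAAACA begins 99 bases before the start of Mapkap1. In all, 8 members had CACGTG in a window (Tbc1d7, Rheb, Rragb, Rragc, Lamtor1, Lamtor4, Fnip1 and Eif4e), which is 17.02% of the 47 member windows, and 7.15% of the 32851 windows in the table had it. None of the member windows held TCACGTGA, found in 0.974% of all windows. GTAAACA occurred in 5 member windows, 10.6%, of 4 members (Mapkap1 with 2 overlapping windows, Sesn1, Akt1 and Stk11) and in 3.65% of all windows. TGATGNAA occurred in 2 member windows, 4.26% (Lamtor4 and Akt2), and in 3.97% of all windows. None of these differences in share was tested. Of the 8 genes with CACGTG, Rheb, Lamtor1 and Eif4e were lower in Model against Ctrl, and Lamtor1 and Lamtor4 in YHY against Model. Among all 42 members, 10 and 9 were lower in these comparisons, and among all genes tested 18.5% and 7.62%. A link between the motif and the calls was not tested. A match describes letters of the reference sequence and shows no binding.

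Folliculin, the product of Flcn, acts with Fnip1 or Fnip2 on RagC and RagD. Flcn (ENSMUSG00000032633, chr11:59682234-59700842, - strand) had a CPM of 20.7, 24.8, 21.8 and 22.3 in Ctrl, 26.0, 35.7, 33.9 and 32.8 in Model, and 36.2, 50.6, 55.7 and 91.9 in YHY. The groups did not overlap, and YHY 4 was far the highest. Flcn rose 1.83-fold in YHY against Model (log2 fold change 0.87 ± 0.22, adjusted P = 0.0169). Without YHY 4 the value was 0.56 (adjusted P = 0.0316), and the 9 mice behind the deposited group means gave 0.49 (adjusted P = 0.0628), which ended the call. Model against Ctrl gave 0.52 ± 0.22 (adjusted P = 0.0692), which passed without YHY 1 or YHY 4 (adjusted P from 0.0143 to 0.0323) and in 5 settings (upper-quartile scaling, the nuclear library size, at least 10 counts in every mouse, and the fits of 8 and 9 mice). YHY mice were 2.62-fold higher than Ctrl mice (1.39 ± 0.22, adjusted P = 8.45e-05). Fnip1 was called only in YHY against Ctrl (0.69 ± 0.20, adjusted P = 0.0102; mean CPM 25.0, 28.6 and 40.3). That value dropped to 0.40 without YHY 4 (adjusted P = 0.0421), and library size alone (0.22) and the 9 mice (0.35) ended the call. Without YHY 3 it also passed in YHY against Model (0.66, adjusted P = 0.0314), as with the nuclear library size. Fnip2, at a mean CPM of 47.2, 42.4 and 40.8, was called in none.

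GATOR1, made of Nprl2, Nprl3 and Depdc5, switches RagA and RagB off when amino acids are scarce, and a pair of its subunits differed in opposite directions in Model. Nprl2 (ENSMUSG00000010057, chr9:107419425-107422905, + strand) stood at a CPM of 25.5, 27.5, 26.3 and 23.4 in Ctrl, 18.7, 22.8, 13.8 and 15.5 in Model, and 20.9, 22.1, 23.0 and 26.5 in YHY. All Model mice lay below all Ctrl mice, and YHY overlapped both. Nprl2 was lower in Model (log2 fold change -0.54 ± 0.16, adjusted P = 0.0143), a call that ended without Model 3 or Model 4 (-0.44 and -0.48, adjusted P from 0.0505 to 0.0563) and with the nuclear library size (-0.21, adjusted P = 0.314). YHY against Model gave 0.39 ± 0.16 (adjusted P = 0.121), which passed without Model 2 (adjusted P = 0.0471), with the nuclear library size and with length and GC offsets. Nprl3 (ENSMUSG00000020289, chr11:32175628-32217707, - strand) stood at 10.4, 13.2, 11.4 and 12.0 in Ctrl, 14.7, 21.2, 21.6 and 26.0 in Model, and 29.2, 32.3, 21.1 and 18.4 in YHY. Every db/db mouse exceeded every Ctrl mouse. Nprl3 rose 1.78-fold in Model (0.83 ± 0.20, adjusted P = 0.00413), which library size alone ended (0.39, adjusted P = 0.151), and YHY against Model gave 0.27 ± 0.20 (adjusted P = 0.392). Nprl3 lies opposite Mpg over 6196 bases (mean counts 518.75 and 81.9). Depdc5, at a mean CPM of 8.15, 10.1 and 10.9, was called in none. Summed per kb, GATOR1 stood at 15.0 ± 1.01, 12.4 ± 1.89 and 15.7 ± 0.747 CPM per kb in Ctrl, Model and YHY.

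Sestrins restrain mTORC1 through the amino acid branch, Sesn2 being a leucine sensor. Sesn1 (ENSMUSG00000038332, chr10:41685931-41784420, + strand) had a CPM of 9.65, 9.42, 9.67 and 11.7 in Ctrl, 13.97, 15.6, 11.9 and 13.5 in Model, and 22.1, 37.8, 17.9 and 17.8 in YHY. Sesn2 (ENSMUSG00000028893, chr4:132219343-132237812, - strand) had 24.3, 40.9, 30.3 and 33.1 in Ctrl, 30.2, 39.3, 33.1 and 35.1 in Model, and 43.8, 84.4, 40.5 and 59.4 in YHY. For both genes all YHY mice lay above all Model mice, and YHY 2 was the highest. Sesn1 rose 1.73-fold (log2 fold change 0.79 ± 0.21, adjusted P = 0.0239) and Sesn2 1.66-fold (0.73 ± 0.21, adjusted P = 0.0353) in YHY against Model. Both calls depended on single mice. That of Sesn1 ended without YHY 2 (0.49, adjusted P = 0.0634), Model 3 (0.73, adjusted P = 0.0816) or Model 4 (adjusted P = 0.0558), and that of Sesn2 without YHY 2 (0.48, adjusted P = 0.113), YHY 4 (adjusted P = 0.0515), or Model 1, 3 or 4, and with the 9 mice behind the deposited group means (0.65, adjusted P = 0.0845). In Model against Ctrl, neither passed (Sesn1 0.44 ± 0.21, adjusted P = 0.117, though it passed without YHY 2 at adjusted P = 0.0278, with the nuclear library size and with the 8 mice of the comparison alone; Sesn2 0.10 ± 0.21, adjusted P = 0.75), and library size alone turned Sesn2 to -0.33, the length and GC offsets to -0.10 and leaving out Ctrl 1 to -0.07. In that comparison, library size alone also took Sesn1 to -0.000907. Sesn3, at a mean CPM of 22.2, 19.0 and 16.6, was called in no comparison. It did pass in YHY against Ctrl without YHY 1 (-0.82, adjusted P = 0.00534), with library size alone and with length and GC offsets.

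Among the upstream genes, 2 of 7 were called, both lower, in Model against Ctrl and again in YHY against Model. That is 28.6%, beside 38.0% of all genes tested in the first comparison and 13.3% in the second. These differences in share were not tested. Prkaa2 encodes a catalytic subunit of AMPK, the energy sensor that inhibits mTORC1 (ENSMUSG00000028518, chr4:104887071-104967087, - strand). CPM was 68.2, 76.4, 78.2 and 67.4 in Ctrl, 49.7, 35.5, 40.2 and 28.8 in Model, and 22.3, 18.9, 24.5 and 27.4 in YHY. Each group lay below the one before it, with no mouse out of order between groups. Prkaa2 was lower in Model against Ctrl (log2 fold change -0.91 ± 0.17, adjusted P = 0.00057) under every alternative, and lower in YHY against Model (-0.73 ± 0.17, adjusted P = 0.0114) except with library size alone (-0.72, adjusted P = 0.0611). The other catalytic subunit, Prkaa1, was called in neither, with 21.6, 16.0, 21.0 and 22.7 in Ctrl, 17.4, 17.8, 16.3 and 17.7 in Model, and 23.1, 22.6, 25.1 and 22.1 in YHY. Its YHY mice all lay above its Model mice (0.42 ± 0.14, adjusted P = 0.0522), and it passed without Ctrl 2 (adjusted P = 0.0385) and under 6 other settings, among them DESeq2. In Model against Ctrl it passed with library size alone and with the 9 mice. Stk11 encodes LKB1, the kinase that activates AMPK. It was called only in YHY against Ctrl (0.49 ± 0.14, adjusted P = 0.0087; mean CPM 86.0, 104 and 121), which ended without Ctrl 3 (adjusted P = 0.0625), with library size alone (0.06) and with length and GC offsets (0.19). It lies opposite Cbarp over 232 bases (mean counts 2931 and 114.5).

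Akt2, a kinase of insulin signalling that inhibits the TSC complex (ENSMUSG00000004056, chr7:27290977-27340251, + strand), had a CPM of 55.3, 54.5, 52.5 and 62.6 in Ctrl, 36.0, 39.7, 43.8 and 40.3 in Model, and 30.4, 18.6, 31.5 and 28.6 in YHY. Here too the groups were ordered without overlap. Akt2 was lower in Model against Ctrl (log2 fold change -0.49 ± 0.16, adjusted P = 0.0211), which ended without Model 2 (adjusted P = 0.0502), with upper-quartile scaling (-0.39) and with the nuclear library size (-0.17). It was lower in YHY against Model (-0.55 ± 0.16, adjusted P = 0.0316), which ended without Ctrl 1 or 3, Model 2, 3 or 4, or YHY 2 (log2 fold change -0.55 to -0.41, adjusted P from 0.0506 to 0.0991), with either library-size scaling, and with the 8 or 9 mice of the smaller fits. The YHY mice as a group were 0.486 times the Ctrl level (-1.04 ± 0.16, adjusted P = 6.07e-05). Akt1, Pdpk1, the kinase that phosphorylates Akt, and Ddit4, a stress-induced inhibitor of mTORC1, were called in none of the 3 comparisons. Mean CPM was 59.8, 65.1 and 52.2 for Akt1, 20.1, 13.7 and 13.7 for Pdpk1, and 29.6, 24.9 and 33.4 for Ddit4. Ddit4 spread most within YHY, with 58.1, 44.7, 16.3 and 14.5. Pdpk1 passed in Model against Ctrl without Ctrl 2 or YHY 4 (adjusted P from 0.0245 to 0.0316) and with the replicate number as a block (-0.51, adjusted P = 0.0397), as it did in 4 other settings. It passed in YHY against Ctrl without Ctrl 1 or 2, Model 1 or YHY 4 (adjusted P from 0.00258 to 0.0481) and in 6 settings.

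The effectors held the largest rise and one of the largest falls of the members in Model against Ctrl. Rps6kb2 encodes S6K2, a kinase phosphorylated by mTORC1 (ENSMUSG00000024830, chr19:4203990-4213353, - strand). Its CPM was 15.9, 18.2, 14.9 and 14.3 in Ctrl, 27.1, 71.5, 56.4 and 66.1 in Model, and 47.4, 57.4, 56.1 and 42 in YHY. All db/db mice exceeded the Ctrl mice, and Model 1 lay below the other db/db mice. Rps6kb2 rose 3.49-fold in Model (log2 fold change 1.80 ± 0.23, adjusted P = 4.11e-05), and the call held in every alternative. YHY against Model gave -0.12 ± 0.23 (adjusted P = 0.778). Rps6kb1, which encodes S6K1, was called only in YHY against Ctrl (0.79 ± 0.17, adjusted P = 0.00144; mean CPM 20.9, 27.5 and 36.1), a call that ended with library size alone (0.35), and it passed in Model against Ctrl without YHY 4 (adjusted P = 0.0296), with upper-quartile scaling, the nuclear library size, length and GC offsets, and the 8 mice of the comparison alone. Rps6kb2 lies opposite Coro1b over 45 bases (mean counts 1039.6 and 831) and Rps6kb1 opposite Rnft1 over 155 (789 and 851).

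Eif4e encodes the protein that binds the mRNA cap to start translation (ENSMUSG00000028156, chr3:138231940-138265457, + strand). It stood at a CPM of 58.2, 54.8, 53.0 and 61.2 in Ctrl, 28.7, 20.8, 21.6 and 20.7 in Model, and 22.3, 20.9, 20.7 and 27.2 in YHY. A wide gap separated Ctrl from all db/db mice. Eif4e was lower in Model (log2 fold change -1.31 ± 0.15, adjusted P = 1.34e-05) in every alternative, 0.404 times the Ctrl level, and YHY against Model gave -0.01 ± 0.15 (adjusted P = 0.97). Eif4ebp2, a repressor of Eif4e that mTORC1 inactivates (ENSMUSG00000020091, chr10:61264270-61288440, - strand), stood at 131, 163, 127 and 154 in Ctrl, 162, 133, 121 and 110 in Model, and 77.8, 83.3, 86.1 and 98.2 in YHY. Ctrl and Model overlapped, and all YHY mice lay below both. Eif4ebp2 was lower in YHY than in Model (-0.61 ± 0.15, adjusted P = 0.0178), which ended with library size alone (-0.62, adjusted P = 0.0786) and when the fit held just the 8 mice of the comparison (-0.56, adjusted P = 0.0534). Its paralog Eif4ebp1, at a mean CPM of 14.1, 15.8 and 13.6, was called in none.

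**Figure D4:**
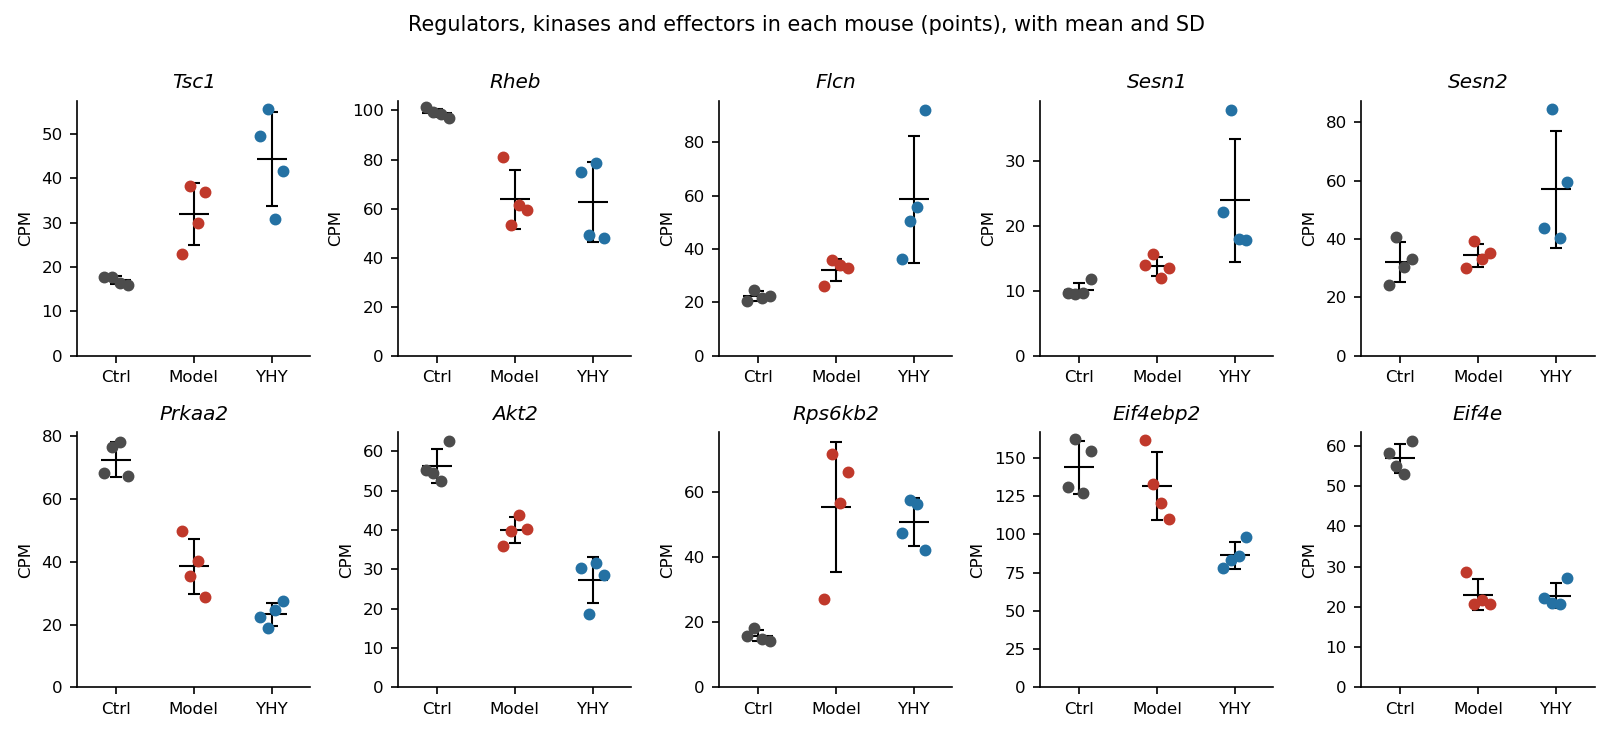
CPM (y axis) of 10 regulators, kinases and effectors in each mouse (points) of the Ctrl, Model and YHY groups, with the mean (long bar) and SD (whiskers, n = 4). Prkaa2 (means 72.6, 38.5 and 23.3) and Akt2 (56.2, 40.0 and 27.3) step down from group to group, Eif4e (56.8, 23.0 and 22.8) and Rps6kb2 (15.8, 55.3 and 50.7) separate Ctrl from db/db mice, and Flcn, Sesn1 and Sesn2 are highest in YHY.

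Among the 10 pairs of paralogs, ratios of CPM per kb compare the copies within a mouse, independently of scaling. Prkaa1 over Prkaa2 was 0.542, 0.358, 0.460 and 0.576 in Ctrl, 0.601, 0.859, 0.694 and 1.05 in Model, and 1.77, 2.05, 1.75 and 1.38 in YHY. The groups did not overlap in any comparison, and in every YHY mouse the AMPK subunit that is less abundant in Ctrl was the more abundant one. Akt1 over Akt2 had a mean of 1.84 ± 0.246, 2.84 ± 0.256 and 3.57 ± 1.57 in Ctrl, Model and YHY (SD, n = 4), with all Model and YHY mice above the Ctrl mice. Rps6kb1 over Rps6kb2 had a mean of 0.792 ± 0.0659, 0.334 ± 0.143 and 0.440 ± 0.189, and all Model mice lay below all Ctrl mice. Sesn1 over Sesn3 had a mean of 1.77, 2.82 and 6.14, with all Model mice above all Ctrl mice. The other 6 pairs overlapped in both of the first comparisons. Their means in Ctrl, Model and YHY were 28.8, 16.2 and 9.27 for Rraga over Rragb, 1.82, 2.22 and 3.00 for Rragc over Rragd, and 0.696, 0.825 and 1.24 for Fnip1 over Fnip2. For Sesn1 over Sesn2 they were 0.284, 0.350 and 0.369, and for Sesn2 over Sesn3 6.63, 8.19 and 17.8. Those of Eif4ebp1 over Eif4ebp2 were 0.261, 0.324 and 0.422. In YHY against Ctrl, all YHY mice lay below all Ctrl mice for Rraga over Rragb. They lay above all Ctrl mice for Rragc over Rragd and for Sesn1 over Sesn3. Reads shared by near-identical stretches of paralogs could be split between them in counting, or shared with near-copies such as Akt2-ps and Rhebl1, which makes these values less certain.

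The ratio of Rictor to Rptor, not a pair of paralogs and chosen after its values were seen, was 0.352, 0.378, 0.459 and 0.298 in Ctrl, 0.486, 0.409, 0.271 and 0.314 in Model, and 1.56, 1.49, 0.613 and 1.19 in YHY. Every YHY mouse lay above every other mouse, and YHY 3 was the nearest to them. Because its genes were picked by their values, no test was made.

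**Figure D5:**
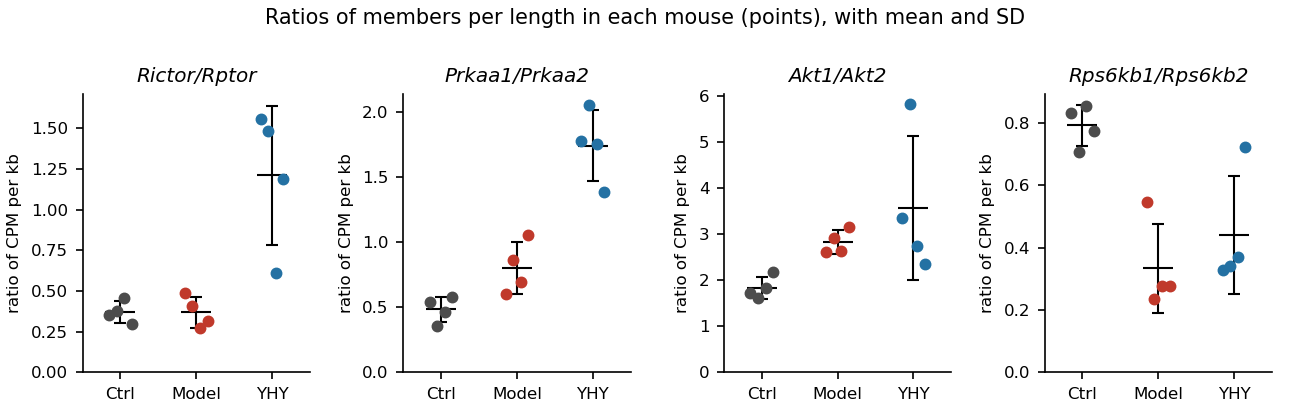
Ratios of CPM per kb (y axis) for 4 pairs of members in each mouse (points) of the 3 groups, with the mean (long bar) and SD (whiskers, n = 4). Prkaa1 over Prkaa2 has means of 0.484, 0.802 and 1.74 without overlap, Rictor over Rptor is higher in YHY (mean 1.21) than in Ctrl (0.372) and Model (0.370), and Rps6kb1 over Rps6kb2 is lower in Model (0.334) than in Ctrl (0.792).

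Compared per kb of gene length in Ctrl mice, the most abundant members outside Ragulator were Eif4ebp2 (24.9 CPM per kb), Stk11 (18.8) and Mtor (17.2), and the least abundant was Rragb (0.554). Raptor and Rictor RNA stood at 1.96 and 0.719 CPM per kb, well below Mtor. All genes tested were put in 4 classes of gene length. In YHY against Model, the median log2 fold change ran from -0.13 in the shortest class (57 to 2139 bases) to 0.17 in the longest. The share called higher was 1.24% in the shortest and 12.3% in the longest, and the share called lower 8.10% and 5.19%. Correlation of log2 fold change with log2 length was r = 0.34 for members and -0.09 for all genes in Model against Ctrl. In YHY against Model it was 0.13 and 0.14. The part of gene length in the members' results was not tested beyond the alternative with length and GC offsets.

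Lists of further genes of the pathway were read in the same way. Of all genes tested, 19.6% were higher and 18.5% lower in Model against Ctrl, and 5.63% and 7.62% in YHY against Model. Counts called in these lists and among the markers below were not tested against those shares. The first list held genes of GATOR2 and the amino acid sensors. Sec13 (log2 fold change -0.98 ± 0.16, adjusted P = 0.000221) and Sar1b (-1.10 ± 0.21, adjusted P = 0.000797) were lower in Model, and Castor2, related to the arginine sensor Castor1, was higher (2.18-fold, adjusted P = 0.00118). Castor2 was then lower in YHY than in Model (-1.13 ± 0.23, adjusted P = 0.00551). Its CPM was 84.2, 103, 74.0 and 63.9 in Ctrl, 157, 173, 198 and 180 in Model, and 64.0, 124, 53.4 and 83.1 in YHY, so Model mice stood above all others. In YHY against Model, Wdr59 (0.66 ± 0.19, adjusted P = 0.033), Slc38a9 (0.68 ± 0.21, adjusted P = 0.0432) and Tmem127 (-0.50 ± 0.15, adjusted P = 0.0335) also passed, and each lost its call when any of several mice was left out, 4, 9 and 7 mice in turn, the adjusted P then reaching 0.0833, 0.116 and 0.0945. Of 8 chaperones and partners of the complexes, 1 was higher and 2 lower in Model, namely Ubqln1 (-1.22 ± 0.15, adjusted P = 2.28e-05), Ruvbl1 (-1.20 ± 0.22, adjusted P = 0.000683) and Telo2 (0.57 ± 0.19, adjusted P = 0.0302). The call of Telo2 ended when any 1 of 6 mice was left out (adjusted P up to 0.143). Only Pih1d1 of this list was called in YHY against Model, as lower (-0.62 ± 0.15, adjusted P = 0.0136), a call that ended with the nuclear library size and with the 8 mice of the comparison alone.

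Of 10 genes of the AMPK beta and gamma subunits and LKB1 partners, 2 were higher and 2 lower in Model against Ctrl and none passed in YHY against Model with edgeR. Prkag3, a gamma subunit best known from skeletal muscle, had a CPM of 5.93, 5.18, 4.36 and 4.05 in Ctrl, 22.3, 63.7, 65.1 and 88.8 in Model, and 52.2, 86.6, 27.4 and 40.1 in YHY. Every db/db mouse lay far above the Ctrl mice (log2 fold change 3.62 ± 0.39, adjusted P = 1.09e-05 in Model against Ctrl). Stradb was lower (-1.05 ± 0.15, adjusted P = 8.81e-05) and Strada higher (0.67 ± 0.14, adjusted P = 0.00121), both being partners of LKB1, and Cab39 was lower (-0.48 ± 0.14, adjusted P = 0.0158) except without Model 2 (adjusted P = 0.0604), with upper-quartile scaling and with the nuclear library size. Of 4 MiT/TFE factors, which mTORC1 keeps out of the nucleus, Tfeb was higher (0.62 ± 0.13, adjusted P = 0.00126) and Tfe3 lower (-0.41 ± 0.15, adjusted P = 0.0375) in Model. The call of Tfe3 ended when any 1 of 5 mice was left out (adjusted P up to 0.114). Among genes of PI3K and related kinases, Pik3ca was higher in Model (0.63 ± 0.15, adjusted P = 0.00461), and Sgk1, a target of mTORC2, was higher in YHY than in Model (1.06 ± 0.33, adjusted P = 0.0432). That last call ended when any 1 of 9 mice was left out (adjusted P up to 0.129), and the lowest value was 0.66. The calls of Strada, Tfeb and Pik3ca ended with library size alone, and that of Tfeb also with length and GC offsets.

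Of 16 mTORC1 substrates and translation factors, 15 passed the filter (not Eif4ebp3), and 2 were higher and 5 lower in Model against Ctrl. Eef2, the factor that moves the ribosome along, was lower (log2 fold change -1.18 ± 0.16, adjusted P = 5.69e-05), as were the cap-complex helicases Eif4a2 (-0.83 ± 0.17, adjusted P = 0.00145) and Eif4a1 (-0.69 ± 0.16, adjusted P = 0.0028). Ulk1, the kinase that starts autophagy and is inhibited by mTORC1, was higher (0.97 ± 0.20, adjusted P = 0.00142), at a CPM of 35.3, 38.9, 35.4 and 36.2 in Ctrl, 50.9, 73.5, 76.1 and 84.3 in Model, and 68.5, 120, 62.5 and 73.2 in YHY. Between YHY and Model, Eif4a2 was higher in YHY (0.66 ± 0.17, adjusted P = 0.0201) and Maf1, a repressor of RNA polymerase III, lower (-0.49 ± 0.14, adjusted P = 0.037). The first ended without Model 3 or Model 4 (adjusted P from 0.0547 to 0.0745) and the second when any 1 of 8 mice was left out (adjusted P up to 0.0909). The nuclear library size ended the call of Eif4a1 in Model. Library size alone also ended the calls of Telo2 in Model and of Wdr59, Slc38a9, Tmem127, Sgk1, Eif4a2 and Maf1 in YHY against Model. That of Telo2 also ended without the filter and with length and GC offsets. With the replicate number as a block, those of Tfe3 in Model and of Wdr59, Slc38a9 and Maf1 in YHY against Model ended. The 8 mice of the comparison alone ended those of Wdr59, Slc38a9, Tmem127 and Maf1, the 9 mice those of Wdr59, Slc38a9, Tmem127 and Sgk1, length and GC offsets those of Wdr59, Slc38a9 and Maf1, dropping the filter those of Wdr59, Tmem127 and Maf1, and the nuclear library size those of Tmem127 and Maf1. Upper-quartile scaling, the nuclear library size and both other filters ended that of Tfe3 too. No gene named from these lists changed sign under any of the scalings tried.

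Some markers of the cell types of the kidney also passed the test. Their sums are given with TMM scaling only and were not tested. The 7 proximal tubule markers summed to 4618 ± 606 CPM (SD, n = 4) for Ctrl, 3418 ± 321 for Model and 2683 ± 1058 for YHY, with Slc34a1 the most abundant, and 3 were lower in Model against Ctrl (Lrp2, Cubn and Aqp1). By mouse, the sum was 4288, 5487, 4562 and 4134 in Ctrl, 3456, 3472, 3758 and 2984 in Model, and 1586, 3079, 2097 and 3969 in YHY. So YHY 1 and YHY 3 were lowest, and YHY 4 lay above the Model mice. The 5 markers of the loop and distal tubule summed to 2086 ± 402, 1580 ± 178 and 1775 ± 357 (Umod the most abundant in Ctrl and Slc12a1 in Model and YHY; in Model Umod was lower and Slc12a3 higher, and in YHY against Model Pvalb was lower). The 5 of the collecting duct summed to 870 ± 388, 467 ± 91.7 and 363 ± 169 (Aqp2 the most abundant; Aqp2 and Aqp3 lower in Model, Atp6v1g3 lower in YHY than in Model). The 5 of podocytes summed to 129 ± 18.3, 154 ± 65.7 and 107 ± 36.2 (Podxl the most abundant; Nphs1 and Synpo higher in Model), and the high mean in Model came from Model 1, the mice 1 to 4 having 250, 126, 142 and 100. The 5 of endothelium summed to 163 ± 29.7, 170 ± 22.3 and 177 ± 54.2 (Emcn the most abundant, none called in either comparison by edgeR) and the 5 of stroma and smooth muscle to 142 ± 17.2, 160 ± 16.7 and 193 ± 39.5 (Acta2 the most abundant; Des and Pdgfrb higher in Model, Myh11 higher in YHY than in Model). Of 5 immune markers, 4 were tested, and the 5 summed to 14.1 ± 2.79, 18.2 ± 3.91 and 28.6 ± 10.8 (Ptprc the most abundant in Ctrl and Cd68 in Model and YHY; Cd68 higher in Model). The 5 adipocyte markers, with 1 tested and not called, summed to 0.440, 1.38 and 0.922 (Cidec the most abundant). The calls of Synpo, Pdgfrb, Aqp2 and Aqp1 in Model against Ctrl ended when any of 8, 6, 5 and 1 mice in turn was left out, and that of Myh11 in YHY against Model when any of 11 was. The block ended the call of Synpo. Library size alone ended those of Synpo, Pdgfrb, Des, Cd68 and Myh11, and the nuclear library size those of Aqp1 and Aqp2. That of Aqp2 ended with DESeq2 and with upper-quartile scaling too, those of Synpo, Pdgfrb and Myh11 with length and GC offsets, that of Synpo with the 9 mice, and that of Myh11 with the 8 mice of its comparison alone. No marker was at 0 in all 12 mice. Tubule, collecting duct and podocyte RNA is thus present in every group, and the part of cell composition in the members' values was not tested.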

How the data were processed

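The deposited count table holds raw reads per gene, which the authors made from polyA RNA libraries. Tools named in the labels, without their roles, are FastQC 0.11.9, Trimmomatic 0.39, HISAT2 2.2.1, SAMtools 1.12, featureCounts 2.0.1, DESeq2 1.34.0 and R 4.1.2, with build GRCm39. The labels mention dUTP strand-specific libraries, and whether counting used the strand is not stated. The signal columns of the deposited comparison tables are group means that the authors made from counts divided by size factors, and 9 of the mice, without Ctrl 2, Model 1 and YHY 4, reproduce these means. In the table of YHY and Model, several headers of single mice name mice of the other group. From those tables, 12 columns for single mice and the P value and log2 columns were not used, nor were the KEGG tables.

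Counts were filtered with filterByExpr, scaled by TMM and tested by glmQLFTest in edgeR 4.0.16 (R 4.3.3, limma 3.58.1), with group as the only factor and 12 mice in a single fit. The alternatives were DESeq2 1.42.0, upper-quartile scaling, library size alone, TMM or library size on nuclear genes, other filters, fewer mice, each mouse left out, replicate number as a block, offsets for gene length and GC content (mgcv 1.9.3), and the rule of a fold over 1.2 with an unadjusted P under 0.05. Python 3.11.15, numpy 2.4.6, scipy 1.17.1, pandas 2.3.3 and matplotlib 3.10.9 served for permutations, motifs and plots. The scripts were tested on simulated data for Model against Ctrl. Of 100 genes raised to a fold of 2, 56% were recovered, and of 100 genes lowered to a fold of 0.5, 50%. Of 16682 unchanged genes, 4 were called. Far more genes were called in the real data, so these shares need not hold there, and a gene not called may still differ. Members called in either of the first 2 comparisons, and Mtor, Rptor and Rictor in any case, are given in full, and from the other lists up to 4 called genes per list and comparison, those of smallest adjusted P, are named. Some genes of these lists are not reported here. The members and lists were chosen with earlier results of these data known.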

Additional observations from a re-analysis of the deposited data

Results flagged for a closer look

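These values were picked out because, in a group of 4 mice, 1 mouse lay far from the other 3. Of 195 groups looked at, 15 had such a mouse, and chance alone would pick out about 1 group in 20. None of these distances was tested further.

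In Ctrl 2, CPM was 48.5 for Akt1s1 (41.4 to 42.2 in the other Ctrl mice) and 17.2 for Sesn3 (23.3 to 24.3), the endothelium markers summed to 119 (176 to 181), and the share of mitochondrial transcripts was 22.7% (18.4% to 18.6%). Ctrl 4 stood high for Lamtor1 at 82.8 (67.1 to 68.3), Sesn1 at 11.7 (9.42 to 9.67) and Akt1 at 78.6 (50.6 to 55.2). Ctrl 3 stood low for Rptor at 21.8 (27.7 to 28.2). Model 1 had an Eif4e CPM of 28.7 (20.7 to 21.6) and a ratio of Rps6kb1 to Rps6kb2 of 0.546 (0.236 to 0.278), and Model 4 a Ddit4 CPM of 28.7 (23.3 to 23.8). Among YHY mice, YHY 2 had a Depdc5 CPM of 12.7 (10.2 to 10.5) and a mitochondrial share of 64.6% (53.8% to 54.6%), YHY 3 a sum of loop and distal tubule markers of 2304 (1555 to 1674), and YHY 4 a ratio of Rps6kb1 to Rps6kb2 of 0.722 (0.329 to 0.368).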

How the results depend on the processing

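In Model against Ctrl, 15 members and 6631 genes were called, and the alternatives gave 12 to 21 members and 5292 to 8178 genes (leaving out each mouse, 12 to 18 and 5292 to 7093). In YHY against Model, 13 members and 2311 genes were called. Library size alone gave 6 members and 1177 genes, the 8 mice of the comparison alone 8 and 1385 (21 members in Model against Ctrl), and the rule of a fold over 1.2 with an unadjusted P 4988 genes. With each mouse left out, the range was 7 (Model 3) to 14 members and 1146 (Model 3) to 2723 genes (YHY 4). The cause was not tested. In YHY against Ctrl, 24 members were called, and 23 to 29 in the alternatives. The library size of nuclear genes was chosen after seeing the data.

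For members given in full, no log2 fold change called in Model against Ctrl or YHY against Model turned direction. That of Mtor in YHY against Model, 0.10 and not called, turned to -0.0238 without YHY 2 (adjusted P = 0.963) and to -0.0402 with length and GC offsets (adjusted P = 0.926), and reached 0.18 without YHY 4. The cause was not tested.

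Replicate numbers do not pair the mice: their deviations from group means correlated at r = -0.17 to 0.12 between same-numbered mice, and 3 of 12 mice correlated best with their own number. As a block, the numbers gave 17, 12 and 25 members in the 3 comparisons, and among the members given in full they ended the calls of Lamtor4 and, in YHY against Ctrl, Akt1s1 only. From the other lists they ended named calls of Tfe3, Wdr59, Slc38a9, Maf1 and Synpo.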
